A study of Homo sapiens with 78 samples.

Results

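MYO7B and SLIT1 were described in single Jurkat cells, 2 of 58388 genes with an identifier in the annotation. Both genes were chosen by their level: the deposited values are high in every Jurkat well and near absent in A375, so the difference between the cell lines is a description and no finding. The members were found by summing, in each well, the estimated counts and the TPM (counts scaled by transcript length to a fixed sum) of their annotated transcripts, 7 for MYO7B and 7 for SLIT1. MYO7B (ENSG00000169994) lies at chr2:127535683-127637729 on the plus strand and SLIT1 (ENSG00000187122) at chr10:96998038-97185959 on the minus strand of GRCh38.

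The series holds total RNA libraries of 78 wells, each labelled as 1 sorted cell. Jurkat is a T cell leukemia line, here clone E6-1, stained with anti-CD81 and sorted into lysis solution. A375 is a melanoma line, stained with anti-CD47 and sorted into PBS, so sort buffer and cell line cannot be told apart. Dead cells were left out by 7-AAD staining, and the labels name no treatment or engineered change. Each line was processed with 2 Takara kits for stranded total RNA, the Pico Input Mammalian v2 version of the SMARTer Stranded kit (634413) and the SMART-Seq Stranded Kit (634444), giving 18 Jurkat and 21 A375 wells per kit. The labels name no culture, so the wells of a line and kit count as 1 sample: means are given with the SD over wells, and no test was run.

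Total estimated counts per well, without spikes, lay between 413959 and 1443975 in Jurkat and between 909 and 2567265 in A375. The 9 shallowest wells, each under 203424 counts (25% of the median total), were all A375 wells. The labels were checked with 12 T cell line markers and 12 melanoma line markers, both chosen with earlier results of these data known. In Jurkat the T cell list outweighed the melanoma list in all 36 wells, with summed levels of 1350 to 3990 CPM (counts per 1000000 counts of the well) against 168 to 1053 CPM. TRAC had at least 1 count in 24 Jurkat wells, CD2 in 33, LAT in 34 and CD247 in 35. The other T cell markers, CD3D and CD3E among them, had counts in all 36. In A375 the summed level of the T cell markers was between 0 and 55 CPM, with CD3D, CD3E, CD2 and TRAC at 0 counts in all wells. PTPRC had at least 1 count in 16 A375 wells, CD3G in 10 and LAT in 5. CD247 and LCK had counts in 2 wells each, and CD28, ZAP70 and TRBC1 in 1 each. The melanoma markers held more counts in 19 and 17 wells of the kits, the other 2 and 4 wells having none of either list. These 6 wells held between 909 and 2373 total counts and give no sign of a cell, while the other 36 A375 wells held 80958 or more.

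MYO7B is an unconventional myosin, a motor that walks along actin with its N-terminal head and binds partners with the MyTH4 and FERM domains of its tail. It is best known from the brush border of gut and kidney epithelium, where its tail joins a complex with USH1C and ANKS4B that holds the protocadherins CDHR2 and CDHR5 at the tips of microvilli. SLIT1 is a large secreted protein with leucine-rich repeats at its N-terminal end and EGF-like repeats behind them. It is best known in the nervous system, where SLIT proteins bind ROBO receptors and steer growing axons, with SRGAP, NCK and DOCK proteins acting inside the cell.

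The annotation gives MYO7B an outer start at the 5′ end of the gene and an inner start 84.3 kb further on, and RefSeq lists a promoter for each. Their upstream bases are shown because the counts described next fall almost wholly on transcripts of the inner start. The sequences are those of RefSeq on GRCh38.p14, each ends 1 base before the first annotated transcript base at that start, and capitals mark any match on either strand to one of the motifs searched.

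MYO7B inner promoter, chr2:127619755-127619981, plus strand: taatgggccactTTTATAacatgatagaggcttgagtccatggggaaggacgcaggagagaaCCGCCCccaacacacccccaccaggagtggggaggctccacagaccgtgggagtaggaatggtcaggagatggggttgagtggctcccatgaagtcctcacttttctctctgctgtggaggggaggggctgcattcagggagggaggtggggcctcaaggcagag
MYO7B outer promoter, chr2:127535433-127535682, plus strand: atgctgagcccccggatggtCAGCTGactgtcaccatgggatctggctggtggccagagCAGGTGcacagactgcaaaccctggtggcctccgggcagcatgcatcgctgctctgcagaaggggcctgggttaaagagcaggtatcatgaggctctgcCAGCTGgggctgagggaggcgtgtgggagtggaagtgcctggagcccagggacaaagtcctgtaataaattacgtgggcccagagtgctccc
SLIT1 promoter, chr10:97185960-97186209, minus strand: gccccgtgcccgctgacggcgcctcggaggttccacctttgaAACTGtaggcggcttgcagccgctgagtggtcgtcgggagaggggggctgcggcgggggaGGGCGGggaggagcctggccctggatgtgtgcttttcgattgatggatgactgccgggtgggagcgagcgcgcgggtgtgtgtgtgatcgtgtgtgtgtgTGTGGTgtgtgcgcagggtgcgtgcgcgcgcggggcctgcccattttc

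The motifs searched were the TATA box with the letters TATAAA, the GC box written as GGGCGG, the promoter element CCAAT, the GATA factor motif AGATAA, the RUNX motif spelled TGTGGT, the short MYB motif AACTG, the ETS family motif CCGGAA, and for E-box proteins the palindrome CAGCTG or its variant, CACCTG. The inner MYO7B window held 1 TATA box sequence, far upstream of the start, and 1 GC box, which were present in 10% and 39.7% of the 35116 RefSeq promoters over the same 227 bases. The outer window held CAGCTG at 2 places and CACCTG at 1, which 14% and 17.5% of promoters held over 250 bases. The SLIT1 window held 1 GC box, 1 RUNX and 1 MYB sequence, found in 42.6%, 11% and 34.1% of promoters. The SLIT1 window was rich in CpG, with 25 against a median of 11 over all promoters, whereas the inner and outer MYO7B windows held 3 and 5. A match is a run of letters and not a site of binding.

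The transcripts also differ in what they encode. MYO7B-202, of the outer start, has 48 exons (chr2:127535683-127637726) and 2142 codons before the stop. MYO7B-201, of the inner start, has 23 exons (chr2:127620026-127637726) and 969 codons, which cover 45.2% of the coding bases of MYO7B-202 in the same frame. Its annotated start codon is codon 1174 of MYO7B-202, so the annotated reading frame leaves out the N-terminal motor head. Whether a protein is made from it was not measured. Both transcripts join the same exon, the 27th of MYO7B-202, and the sequences around that junction are shown because they tell MYO7B-201 from MYO7B-202. Of the other transcripts of the inner start, MYO7B-204 joins this exon from a different base, and MYO7B-205 and MYO7B-207 have no junction there. Lower case is the exon before the junction and capitals are the shared exon.

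MYO7B-202, chr2:127612603 joined to chr2:127620340: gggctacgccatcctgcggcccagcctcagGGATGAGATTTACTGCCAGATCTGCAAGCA
MYO7B-201, chr2:127620252 joined to chr2:127620340: tgggacctctcagagGGATGAGATTTACTG

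The annotated coding start of MYO7B-201 lies within this exon, at chr2:127620461, and its first 60 bases are shown with the start codon in capitals.

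MYO7B-201 coding start: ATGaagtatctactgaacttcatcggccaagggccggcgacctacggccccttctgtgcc

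In Jurkat nearly all MYO7B counts fell on transcripts of the inner start. MYO7B-201, MYO7B-204, MYO7B-205 and MYO7B-207, which all begin between chr2:127619982 and chr2:127620035, held 91.3% of the pooled MYO7B counts with kit 634413 (95% Wilson interval 90.9 to 91.7) and 95.4% with kit 634444 (95.1 to 95.7). Over wells the share was 88.5% ± 20.1 (SD, n = 18) and 93.7% ± 7.89 (SD, n = 18). The full-length transcripts MYO7B-202 and MYO7B-203 held 1.65% (1.47 to 1.85) and 2.61% (2.39 to 2.86). The intervals cover counting error only.

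The share of the full-length transcripts was 12.7% or less in every well. With kit 634413 it ranged from 0% to 12.7%, with a median of 0%, and 7 of 18 wells had at least 1 such count. In well 17 of that kit lay 186.1 of the 283 counts, and without this well the pooled share was 0.621%. With kit 634444 it ranged from 0% to 8.82%, with a median of 1.3%, and 14 of 18 wells had at least 1 count. The lowest share of the inner-start transcripts was 20.7% and 76% by kit. The 20.7% was in well 9 of kit 634413, where they held 67.43 counts and the full-length transcripts 41.43. The ratio per length given next is over pooled wells and was not taken per well.

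The low share can be read per length. The first 26 exons of MYO7B-202 lie upstream of the inner starts, and 51.6% of the exon bases of the full-length transcripts (3570 of 6912) are in no other MYO7B transcript. Reads from these bases can be assigned to the full-length transcripts alone, so the 740 counts these transcripts hold in the 36 wells set a limit of 207 counts per kb there. MYO7B-201 held 26080 counts over 3567 bases, or 7312 per kb, at least 35.3 times as many. The ratio was at least 43.4 with kit 634413 and at least 30.2 with kit 634444. Without well 17 of kit 634413, which held 186.1 of the 283 counts there, it was at least 118 with that kit. The deposited MYO7B-202 is 216 bases shorter than the one used for this sum, and if all of these lie upstream, the ratio is at least 33.1 over both kits. The files hold no coverage along the transcript, so the position of the reads within it was not seen.

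Within the inner-start group, MYO7B-201 led. It held 71.6% of the pooled counts with kit 634413 and 78.8% with kit 634444, and it was the transcript with the most MYO7B counts in 17 of 18 and 18 of 18 wells. The share was 73.7% ± 21 and 76.5% ± 12.1 over wells (SD, n = 18 each). The short MYO7B-204, which ends at chr2:127624320, held 5.97% and 4.07%. MYO7B-205 and MYO7B-207, both annotated with a retained intron, held 10.4% and 6.86%, and 3.35% and 5.65%. Unspliced RNA and these retained-intron transcripts cannot be told apart by the estimates. These shares depend on the unit. In TPM, MYO7B-201 held 53% with kit 634413 and 65.5% with kit 634444, and the short MYO7B-204 held 23.1% and 18.4%.

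How firmly these shares are known depends on sequence found in 1 transcript alone. Of runs of 31 bases, the length that Kallisto, the quantification tool of the authors, matches by default, MYO7B-207 has 984 and MYO7B-205 has 430 found in no other transcript of the gene, while MYO7B-204 has 45, MYO7B-201 and MYO7B-203 have 27 each and MYO7B-206 has 0. MYO7B-206, a retained-intron fragment of the 3′ end that begins at chr2:127634226, held 7.06% of the counts with kit 634413 and 2% with kit 634444. It held 0 in most wells, and in well 9 of kit 634413 it held 66.5%, the only well in which MYO7B-201 did not lead. The split between MYO7B-206 and the others therefore rests on the estimation model rather than on reads of its own.

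**Figure D1:**
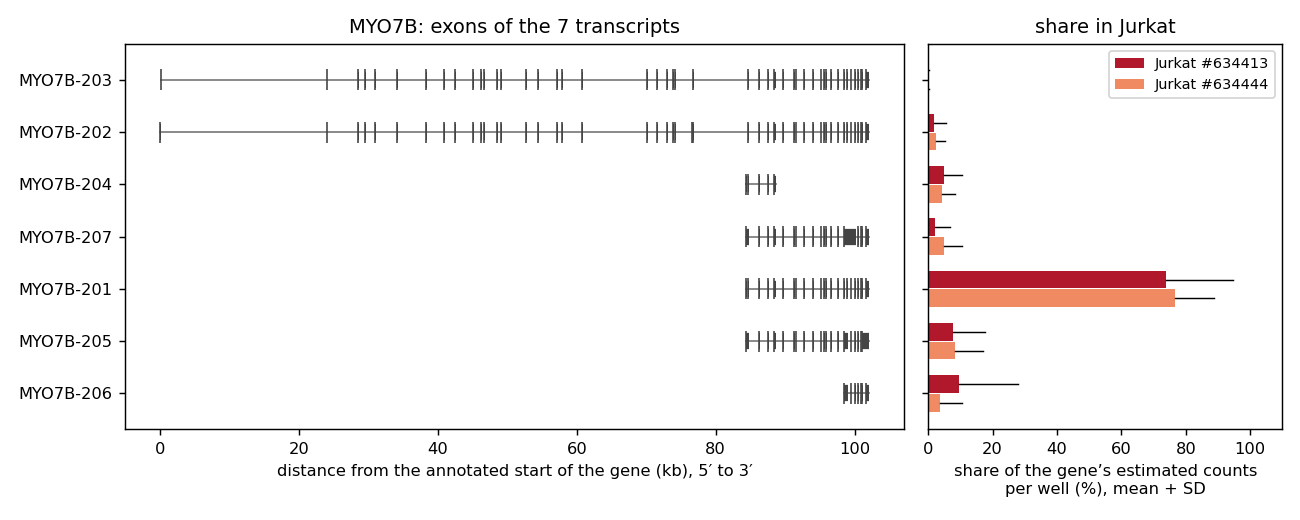
Exons of the 7 MYO7B transcripts by distance from the annotated start of the gene in kb (left; vertical bars mark exons, widened to be visible), and the share of MYO7B estimated counts each held per well in Jurkat by kit in percent (right; bars are means over 18 wells, lines extend by 1 SD). MYO7B-201, which begins at 84.3 kb, held 73.7% and 76.5%, and the full-length MYO7B-202 held 1.81% and 2.36%.

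Most SLIT1 counts fell on its long transcripts, which run from the 5′ end of the gene through 37 exons each. SLIT1-201 (chr10:96998038-97185959) has 1534 codons, and SLIT1-204 (chr10:97001113-97185758) has a shorter 3′ end and 1461 codons, so it lacks part of the coding region. Together they held 69.5% of the pooled counts with kit 634413 (95% Wilson interval 67.9 to 71.1) and 80.9% with kit 634444 (79.2 to 82.6). Over wells the share was 69.2% ± 25.9 and 77.4% ± 29.9 (SD, n = 18 each), with a range of 4.08% to 100% and of 3% to 100%. Every Jurkat well had at least 1 count on these transcripts, and 32 of 36 wells had at least 10.

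This result depends on the unit. In TPM, where each count is divided by the transcript's effective length, SLIT1-201 and SLIT1-204 held 37.1% with kit 634413 and 47.5% with kit 634444, because the partial transcripts are shorter. For MYO7B the inner-start transcripts held 84.8% and 91.8% in TPM and the full-length ones 0.76% and 1.35%.

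SLIT1-201, the transcript with the longest coding region, held 33.5% of the pooled counts with kit 634413 and 54.6% with kit 634444, or 11.7% and 24.4% in TPM. The shares of SLIT1-201 and SLIT1-204 differed between the kits by less than the SD over wells. SLIT1-201 held 32.7% ± 35.1 with kit 634413 and 53.1% ± 30.1 with kit 634444, and led in 7 and 13 of 18 wells. SLIT1-204 held 36.5% ± 34.4 and 24.3% ± 21.5 (SD, n = 18 each), and led in 8 and 3 wells. SLIT1-201 has 2882 runs of 31 bases of its own, most of them in its long 3′ end, and SLIT1-204 has 28.

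The partial SLIT1 transcripts with the 5′ end of the gene held most of the rest. SLIT1-202, which has 22 exons (chr10:97037698-97185623), held 22.4% of the pooled counts with kit 634413 and 12.7% with kit 634444, and was at 1 count or more in 13 and 8 of 18 wells. SLIT1-203 held 2.37% and 3.87%, and SLIT1-205 held 4.69% and 1.82%. SLIT1-207, which begins within the gene, held 24 counts in 1 well of kit 634413 and 11 counts in 1 well of kit 634444. SLIT1-206 at the 3′ end held 7.14 and 3.33 counts.

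SLIT1-202 ends before the last exons of the long transcripts, and one of its exons begins with 30 bases that no other SLIT1 transcript has. They are shown in capitals, with the rest of the exon in lower case, because no other bases are its own.

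SLIT1-202 exon, chr10:97059460-97059561, minus strand: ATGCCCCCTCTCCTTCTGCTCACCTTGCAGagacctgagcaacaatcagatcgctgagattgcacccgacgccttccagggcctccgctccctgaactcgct

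**Figure D2:**
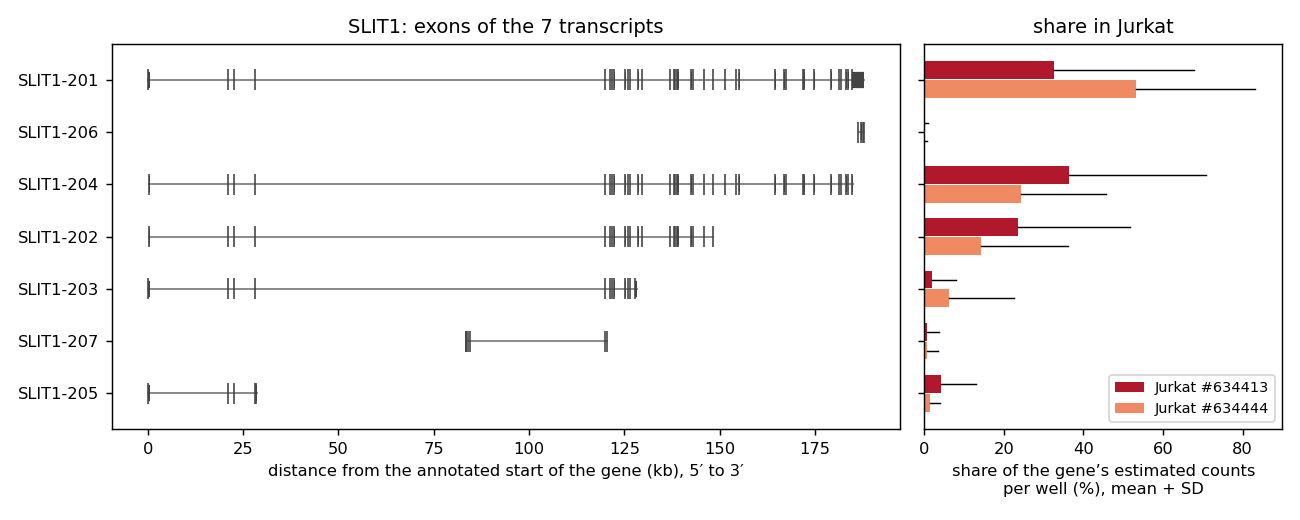
Exons of the 7 SLIT1 transcripts by distance from the annotated start of the gene in kb (left; vertical bars mark exons, widened to be visible), and the share of SLIT1 estimated counts each held per well in Jurkat by kit in percent (right; bars are means over 18 wells, lines extend by 1 SD). SLIT1-201 held 32.7% and 53.1%, SLIT1-204 36.5% and 24.3%, and SLIT1-202 23.6% and 14.2%.

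Genes that overlap the members were counted apart. ARHGAP19-SLIT1 lies on the same strand as SLIT1 and shares exons with it. In Jurkat it held 351 counts with kit 634413 and 389 with kit 634444, with 0 to 139 CPM per well. Its 1-exon transcript (chr10:97153045-97155433), within an intron of SLIT1, held 169 and 57 of them, so unspliced SLIT1 RNA and this transcript cannot be told apart. SLIT1-AS1, antisense to SLIT1, was at 0 counts in all 78 wells, and the antisense gene ENSG00000272789 within MYO7B held 3 counts in Jurkat, and 15 and 22.9 counts in A375 by kit. The libraries and the counting kept the strand.

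As the choice of the genes fixes, MYO7B was high in every Jurkat well. With kit 634413 the 18 wells held between 51 and 2784 MYO7B counts, with a median of 690, which is 56.9 to 3363 CPM with a median of 894. With kit 634444 they held between 150 and 1917 counts, with a median of 951.5, which is 306 to 2057 CPM with a median of 1239. The mean was 962 ± 784 CPM and 1222 ± 513 CPM (SD, n = 18 each). The ranges of the kits overlapped widely, and the highest and the 2 lowest wells were all of kit 634413. Per length the mean was 220 ± 183 TPM and 245 ± 112 TPM.

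SLIT1 was present in every Jurkat well at a lower level. With kit 634413 the wells held between 3 and 366 SLIT1 counts, with a median of 172.5, which is 2.28 to 429 CPM with a median of 153. With kit 634444 they held between 21 and 232 counts, with a median of 95.39, which is 37.1 to 285 CPM with a median of 154. The mean was 179 ± 114 CPM and 152 ± 72.4 CPM (SD, n = 18 each). One well of kit 634413 stood far below the others, at 3 counts, while the remaining 35 Jurkat wells were at 37.1 CPM or above. Per length the mean was 34.3 ± 21.7 TPM and 23.4 ± 14.2 TPM.

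In A375 almost no counts were seen. MYO7B held 2 counts in 1 well of kit 634413 with 2455700 total counts (0.814 CPM) and 0 in the other 41 wells, and SLIT1 held 5 counts in 1 well of kit 634444 with 2567265 total counts (1.95 CPM) and 0 in the other 41. Without the 6 near-empty A375 wells, each gene was at 0 in 35 of 36. The 2 MYO7B counts were on MYO7B-201 and the 5 SLIT1 counts on SLIT1-203. For both genes every Jurkat well lay above every A375 well in CPM, which was so for 0.269% of 15979 genes (43). The rule used this contrast, so nothing is read from it. For SLIT1 the gap was narrow, 2.28 against 1.95 CPM, and rested on the 1 low Jurkat well.

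The depth limits what a 0 in A375 can show. A count of 0 allows up to 3 counts, and for MYO7B this limit lay below the lowest Jurkat well in 36 of 42 A375 wells. For SLIT1 it did so in 8, and it lay below the Jurkat median of 154 CPM in 36. Over pooled wells, MYO7B was 8578 times higher in Jurkat with kit 634413 (exact 95% interval 2374 to 70833, counting error only) and at least 6010-fold higher with kit 634444, where A375 had 0. SLIT1 was at least 1041-fold higher with kit 634413 and 441 times higher with kit 634444 (189 to 1359). The bounds take 3 counts over the A375 wells of a kit in place of 0.

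**Figure D3:**
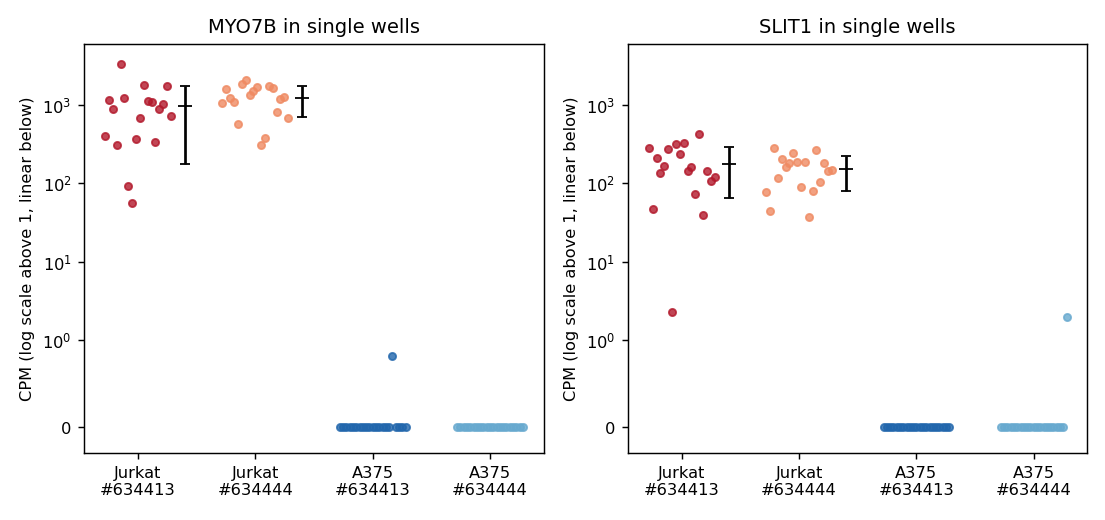
MYO7B (left) and SLIT1 (right) in each of 78 wells in CPM, on an axis that is logarithmic above 1 and linear below, by cell line and kit; each point is 1 well and, for Jurkat, the bar is the mean ± SD over 18 wells. MYO7B lies between 56.9 and 3363 CPM in Jurkat and at 0 in 41 of 42 A375 wells, and SLIT1 between 2.28 and 429 CPM and at 0 in 41 of 42.

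Against other genes of the cell, MYO7B ranked high. By pooled CPM it was the 34th of 19770 protein coding genes in Jurkat, and per length, by mean TPM, the 229th. SLIT1 was the 895th by CPM and the 3108th by TPM. The rank per length is the one that compares genes, since a long transcript gives more fragments.

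The difference between the kits was smaller than the SD over wells for both genes. MYO7B was 260 CPM higher with kit 634444 in the mean, less than either SD. By pooled counts its ratio was 1.29 (95% interval 1.26 to 1.31, counting error only). SLIT1 was lower by 27.2 CPM with kit 634444, also less than either SD, with a pooled ratio of 0.864 (0.817 to 0.913). The medians over wells were 0.854 CPM apart in the other direction, so no direction is given for SLIT1. Neither gene was past 2-fold between kits, which 13.4% of 10596 genes were. Without well 5 of kit 634413, the highest, the MYO7B difference was 402 CPM, and without well 14 of that kit the SLIT1 difference was -12.6 CPM.

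The labels give neighbouring index numbers to the wells of a kit. The paper describes pooling 8 samples during library preparation, but the labels do not name these pools. The A375 and Jurkat libraries were then sequenced together. In each run of 8 index numbers with Jurkat wells there were 6 of them, all of 1 kit. The mean of MYO7B over such wells was 1228, 685 and 972 CPM with kit 634413 and 1233, 1214 and 1220 CPM with kit 634444. SLIT1 had means of 186, 199 and 153 CPM and of 148, 153 and 154 CPM. The differences between runs of indexes were within the SD over wells of the kit for both genes.

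MYO7B varied between wells more than most genes of its level. Its coefficient of variation (CV, the SD over the mean) was 81.5% with kit 634413 and 42% with kit 634444, while counting error alone gives 3.39% and 3.37%. The 100 genes nearest in mean lay at 588 to 1521 CPM with kit 634413 and at 643 to 2292 CPM with kit 634444. These ranges are wide, so the match in level is loose. Of these genes, 96 had a lower CV with kit 634413 and 77 with kit 634444, and their median CV was 36.5% and 29.3%. With kit 634413, 2 wells were below 0.25 times the median and 2 above 2 times it. Without well 5, the highest, that CV was 63.5%.

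The SLIT1 CV was near the middle for its level. It was 63.5% with kit 634413 and 47.6% with kit 634444, against 7.78% and 9.61% from counting error. The 100 genes nearest in mean lay at 172 to 186 CPM and at 146 to 158 CPM by kit. Of these genes, 47 and 34 had a lower CV, and their median CV was 64.8% and 52.1%. Without the low well, well 7 of kit 634413, it was 57%. After each well was thinned to 413959 total counts, that of the shallowest Jurkat well, the CV was 81.9% and 42% for MYO7B and 67.8% and 48.4% for SLIT1.

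**Figure D4:**
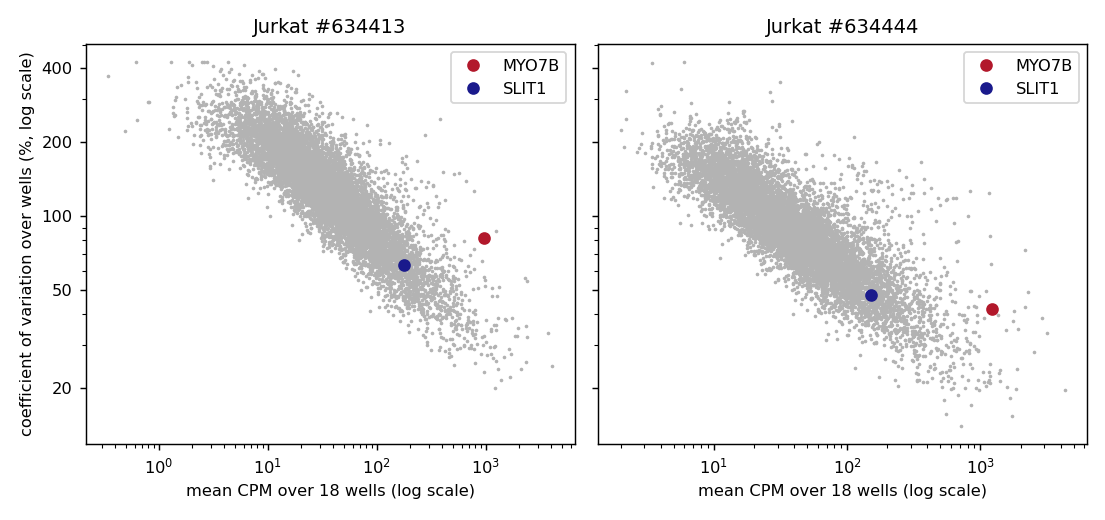
Coefficient of variation over 18 Jurkat wells in percent against mean CPM, both on log axes, for kit 634413 (left) and kit 634444 (right); each grey point is a protein coding gene that reached 5 counts in 25% or more of Jurkat wells. MYO7B, at 81.5% and 42%, lies above most genes of its level, and SLIT1, at 63.5% and 47.6%, lies within them.

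The wells low in one gene were not as a rule low in the other. Well 8 of kit 634413, the lowest in MYO7B at 51 counts (56.9 CPM), held 287 SLIT1 counts (320 CPM), among the highest. Well 14 of that kit, the highest in SLIT1 at 429 CPM, held 338 CPM of MYO7B, and well 5, the highest in MYO7B at 3363 CPM, held 168 CPM of SLIT1. Well 7 was low in both, at 93.6 and 2.28 CPM, with 1313483 total counts. Across the 18 wells Spearman's correlation between the genes was -0.23 with kit 634413 and 0.042 with kit 634444. That of each gene's CPM with the total of the well lay between -0.3 and -0.015. The wells share the total in which both are expressed.

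**Figure D5:**
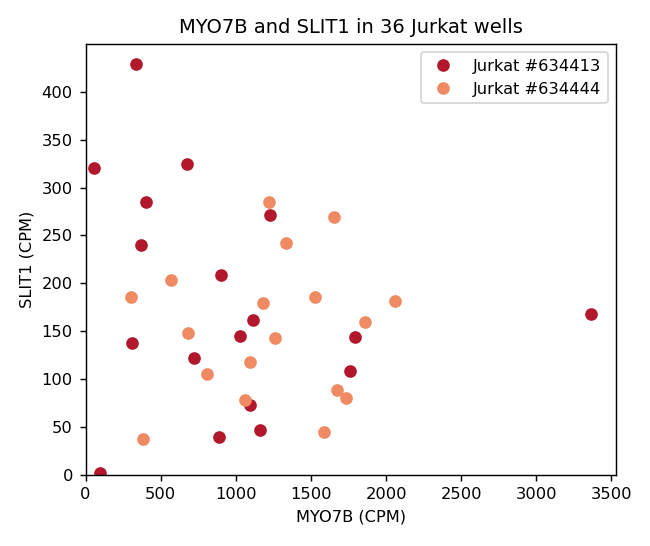
SLIT1 against MYO7B in CPM in 36 Jurkat wells, by kit; each point is 1 well. The well lowest in MYO7B (56.9 CPM) held 320 CPM of SLIT1, and 1 well, at 93.6 and 2.28 CPM, was low in both.

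The genes most like each member across Jurkat wells were ranked by Spearman's correlation of CPM within each kit, averaged over the kits, among 7761 genes that reached 5 counts in a fraction of 0.5 or more of the Jurkat wells. For MYO7B they were DPYSL2 (0.59), the transcript ENST00000542068, matched to no gene (0.56), the histone genes H2AC6 and H1-2 (0.54 each) and DCBLD2 (0.53). For SLIT1 they were RPL8, a ribosomal protein gene (0.57), COG6, RAP2B and ZNF136 (0.53 each), and HERC5 (0.52). With Pearson's r of log2(CPM + 1), 2 of the 5 genes remained among the top 5 for MYO7B and 0 of 5 for SLIT1. By that measure DPYSL2, H1-2 and DCBLD2 ranked 45th, 51st and 63rd for MYO7B. These are descriptions over 18 wells of each kit, in counts that share a total. The genes named have the highest of 7761 values, and whether unrelated genes would reach such values was not tested.

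Among 1723 genes with at least 1 count in every Jurkat well, 39 were in A375 at or under 1% of their pooled Jurkat CPM. Both members are in this group, as the rule that chose them fixes, so nothing is read from it. Of these, MYO7B was the 2nd by pooled CPM (1067) and SLIT1 the 21st (162). The others of the first 10 were LCP1 (1248 CPM), an actin-bundling protein of blood cells, ARHGDIB (1037), the T cell transcription factor TCF7 (749), MYB (636), ADA (533), ATP2A3 (378), a calcium pump, PTPRC (342), which encodes CD45, CORO1A (328) and CD3E (302). MYO1G, a myosin of blood cells, was the 12th (287).

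MYO7B was the myosin with the highest level per length among the 24 unconventional myosins listed. Its mean of 220 and 245 TPM with kits 634413 and 634444 compared with 73.4 and 103 TPM of MYO18A and 63.6 and 41.6 TPM of MYO1G. Of 24 myosins, 13 passed the filter (5 counts or more in 25% or more of a line's wells). 3 of them, MYO7B, MYO1G and MYO18A, were at least 2-fold higher in Jurkat than in A375, which 21.1% of 13356 genes were, and 6 were at least 2-fold lower, which 28% were. Of the higher ones MYO7B was itself chosen on this contrast, and MYO18A was near the limit at 229 against 113 pooled CPM. Of the lower ones MYO1E was at 1.54 against 172 pooled CPM and MYO6 at 0.0923 against 45.3. MYO7A, the closest relative of MYO7B, held 0 counts in Jurkat. The median log2 ratio of the 13, MYO7B included, was -0.64, against -0.073 over all genes.

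Of the brush border complex of MYO7B, CDHR2, CDHR5, USH1C and ANKS4B were at or near 0 in Jurkat. CDHR2, CDHR5 and USH1C were at 0 counts in all 36 wells, which allows up to 0.0923 pooled CPM each, and ANKS4B was at 0.785 CPM, with counts in 6 wells. CALML4, a calmodulin-like light chain of MYO7B, was at 9.79 CPM in Jurkat, with counts in 18 wells, and at 8.01 in A375. VIL1, which encodes villin, held counts in 1 Jurkat well (0.185 CPM). Of 21 listed genes 14 passed the filter, with 4 higher in Jurkat (MYO7B, CALM3, EZR and NHERF1) and 4 lower (EPS8, ESPN, MYO6 and BAIAP2L1), beside 21.1% higher and 28% lower over all genes. MYO7B itself was chosen on this contrast. EZR, which encodes ezrin, was at 120 against 41.5 pooled CPM and EPS8, an actin regulator of microvilli, at 0.544 against 98.2. The median log2 ratio of the 14 was -0.49, against -0.073 over all genes.

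SLIT1 was the only SLIT gene with more than a few counts in Jurkat. SLIT2 and SLIT3 were at 0.0308 and 0.0923 pooled CPM in Jurkat and at 3.19 and 0.972 in A375, too few counts for the filter. Of the receptors, ROBO3 was at 13.6 CPM in Jurkat, with counts in 23 of 36 wells, and at 8.2 in A375. ROBO1 was at 1.29 against 125 in A375 and ROBO2 at 0.954 against 4.9, both at least 2-fold lower in Jurkat, and ROBO4 was at 0 counts in Jurkat.

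The genes that act behind the receptors were mostly lower in Jurkat or under 2-fold. SRGAP1 (2.9 against 45 pooled CPM), SRGAP2 (58.9 against 218), DOCK1 (0.0923 against 110) and ENAH (30.9 against 267) were, with both of these ROBO genes, among 12 of 24 genes past the filter that were at least 2-fold lower, which 28% of all genes were. NCK2, an adaptor, was at 57.8 against 10.1 and was, beside SLIT1, which was chosen on this contrast, the other of the 2 higher ones, against 21.1% of all genes. The median log2 ratio of the 24 was -0.85, against -0.073 over all genes. These lines differ in lineage and sort buffer, and the part of either in these counts was not tested.

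The genes around the members were not all higher in Jurkat. Within 500 kb of MYO7B lie 14 other protein coding genes, of which 10 passed the filter, 3 being higher in Jurkat (IWS1 at 194 against 68 pooled CPM, POLR2D at 105 against 52 and SAP130 at 50.8 against 24.9) and 2 lower (CYP27C1 and AMMECR1L). Within 500 kb of SLIT1 lie 21, of which 15 passed, 3 being higher (PGAM1 at 445 against 89.8, ARHGAP19 at 56.5 against 15.8 and ARHGAP19-SLIT1 at 22.8 against 0.277) and 5 lower (TM9SF3, PIK3AP1, RRP12, MORN4 and AVPI1). ARHGAP19-SLIT1 overlaps SLIT1 and shares exons with it, so its place among the higher genes is not independent of the chosen gene. Over all genes 21.1% were higher and 28% lower, so the counts of neighbours are near the background. The median log2 ratio was 0.34 and -0.39, against -0.073 over all genes.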

How the data were processed

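Libraries of 78 sorted single cells were sequenced paired-end. The authors trimmed 3 nucleotides of read 2 with cutadapt, quantified Ensembl v91 transcripts and ERCC spikes with Kallisto 0.43.1 in stranded mode, and deposited, per well, estimated counts (expected counts, not normalized), TPM, and other values, the length and effective length of each target. STAR 2.5.3 on hg38 served their quality control.

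Genes were named by transcript identifier with GENCODE v44, which matched 195850 of 200206 transcripts. The other 4356 stayed unnamed, so a retired transcript of a member would be missed. In the shares over all genes, each unnamed transcript stood as a gene of its own. Counts were summed per gene and divided by the well total without spikes (CPM). Lengths are those of the deposited files. The 31-base runs were counted, and junction and coding sequences read, in GENCODE v44, and promoters in RefSeq GRCh38.p14. The deposited length of MYO7B-202 is 6694 bases, against 6910 in v44, and of SLIT1-201 7925 against 7964.

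No test was run. Intervals are Wilson intervals for shares, exact binomial ones for ratios, at 95%, and cover counting error only, since reads without molecular identifiers are not independent molecules. Members, lists and rules were chosen with earlier results of these data known. The named genes are the members, genes that overlap them, members of the lists and neighbours first where above 10 CPM or past 2-fold, the 5 genes most alike, and the 10 highest of the line pattern. MYO1G in that pattern was named after its value was seen. No 2 wells were identical (0 pairs). The 2-fold rule and the likeness ranking were tested on simulated data. Python 3 with numpy, pandas and scipy was used.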

Additional observations from a re-analysis of the deposited data

How the results depend on the processing

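Of 123 alternative values, 109 stayed within their limit, 13 moved past it and 1 changed sign. The limit was 1 SD over wells for levels, kit differences and shares, the range on leaving out single wells for the CV, and 1.5 times for numbers of wells. The CV values with wells left out make up that range, so these values among the 109 could not move past it. The likeness rankings had no limit and were counted as moved. The limit for shares was wide: SLIT1-201 with kit 634413 went from 33.5% of counts to 11.7% in TPM and stayed within it. Levels and differences in another unit, such as TPM, were compared as multiples of their own SD, since their values cannot be set against CPM. The alternatives were other scalings (TPM, totals without the rDNA unit, counts not scaled, thinned counts), medians, pooled counts, deeper wells, SLIT1 counted with ARHGAP19-SLIT1, and each Jurkat well left out in turn, the last chosen after seeing the data. By medians over wells the SLIT1 kit difference was 0.854 CPM, against -27.2 in the mean. In TPM, the CV with kit 634444 was 45.7% for MYO7B and 60.6% for SLIT1, the share of MYO7B-201 with that kit was 65.5%, and the share of SLIT1-201 and SLIT1-204 together was 37.1% and 47.5%. In counts not scaled, the CV with kit 634444 was 49.2% and 54%, and thinned, that of SLIT1 with kit 634413 was 67.8%. A threshold of 10 counts left no A375 well with either gene.

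With wells left out in turn, the kit difference was 207 to 402 CPM for MYO7B and -37.6 to -12.6 CPM for SLIT1, and the full-length share of MYO7B with kit 634413 was 0.621% to 1.94%. The CV of MYO7B was 63.5% to 85.4% and 37.1% to 43.4% by kit, and that of SLIT1 57% to 66.2% and 43.2% to 49.4%. No paired analysis was possible because the labels give wells no replicate number and no test was run. Depth limits a 0 of SLIT1 in A375 most, as 3 counts lie below the lowest Jurkat level in 8 of 42 wells only.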
